A study of Bos taurus with 40 samples.

Results

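The 10 genes described here encode steroid dehydrogenases and reductases, most of which are known for switching steroid hormones on or off. The genes are HSD11B1, HSD11B2, HSD17B1, HSD17B2, HSD17B6, HSD17B11, 20ALPHA-HSD, SRD5A1, SRD5A2 and SRD5A3. They were chosen by symbol from the 13570 genes of the deposited read counts. All 10 are in the tables, and 9 of them had at least 1 read in the 40 samples. RNA from the pituitary gland, liver, abdominal adipose tissue (called fat) and longissimus dorsi muscle of 5 female and 5 male Korean cattle was sequenced. By the labels, each animal gave 1 sample of each tissue. All animals were slaughtered at over 22 months of age, with a carcass weight of 353 ± 36 kg, and none is labelled with a treatment. Females carry the names cow 1 to cow 5, males the names bull 1 to bull 5. The study asks which genes differ between the sexes in metabolic tissues and the pituitary gland.

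Steroid hormones reach a tissue through the blood, but enzymes inside the cell decide how much of the active form meets a receptor. Hydroxysteroid dehydrogenases move hydrogen on or off a carbon of the steroid. This turns cortisone into cortisol, estradiol into estrone or progesterone into a weaker progestin, or the reverse. Steroid reductases remove a double bond of the ring and turn testosterone into the stronger dihydrotestosterone. The liver is known as the main site where steroids are reduced, oxidised and conjugated for excretion.

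Levels are read counts scaled to a common library total with TMM factors (CPM), and a difference is a log2 fold change of a negative binomial model fitted with edgeR to 13148 genes. A gene was called at a Benjamini-Hochberg adjusted p under 0.05. CPM is not divided by gene length, so levels are compared between samples and not between genes. Between 5173092 and 19165864 reads per sample lay on genes, so that 3 reads, taken as the smallest level a library can show, correspond to 0.132 to 0.793 CPM. Intervals and limits from counts cover counting error only.

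In every library, the markers of its own tissue led those of the other 3 tissues. The 8 liver markers summed to 142800 to 345600 CPM in liver, against 16.9 to 1907 CPM in the other tissues. ALB, the serum albumin gene, stood in fat at 0.0307% of its liver level, in muscle at 0.0329% and in the pituitary gland at 0.0144%. The 8 liver markers had a median of 0.132%, 0.0396% and 0.103% of their liver level in these tissues, with APOA1 highest at 42.9% in fat. Markers of adrenal cortex, the gland that makes steroids, summed to 3.87 to 105 CPM in liver and to at most 9.29 CPM elsewhere. Most of the liver sum was CYP11A1, at 2.74 to 104 CPM. The liver medians of CYP11B1, CYP17A1 and MC2R were 0, and that of STAR was 1.15 CPM. CYP21, also in this list, was without reads under that symbol. CYP21A2 and HSD3B1, steroid synthesis genes outside this list, were highest in liver, with means of 5.74 and 12.9 CPM. CYP17A1 and STAR were highest in fat and CYP11B1 in pituitary gland. What part adrenal tissue had in these levels was not tested. A pair of libraries stood apart. The library labelled liver of bull 3 had 8694 reads on XIST and 0 on the Y-linked genes DDX3Y, USP9Y and ZFY, and was closest to the liver of cow 4 (r = 0.993), although the 2 libraries differed by more than sampling noise. The fat, muscle and pituitary gland of bull 3 had 372, 211 and 742 reads on USP9Y. By these genes the liver library did not match its label, and which animal it came from was not tested. The fat of bull 5 had 2, 23 and 3 reads on DDX3Y, USP9Y and ZFY and 18 on XIST. Its XIST level was 1.39 CPM, against 315.9 to 980.6 CPM in the fat of the 5 cows. Levels and sex differences in liver and fat are given with and without these libraries where they are described in full. Every comparison between sexes takes the sex from the labels. Counts of animals and fits with the animal as a block take the animal from the labels too, and include the library labelled liver of bull 3.

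Of the 9 genes with reads, 5 were higher in liver than in each of the other 3 tissues: HSD11B1, HSD17B2, HSD17B6, HSD17B11 and 20ALPHA-HSD. Of all 13148 tested genes, 13.6% met this criterion. SRD5A2 alone was higher in pituitary gland than in each other tissue (15.5% of all genes). No member was higher in fat than in each other tissue (11.4% of all genes), nor in muscle (13% of all genes). The liver accounted for 99.6% of the summed tissue means of HSD17B6, 98.7% of those of HSD11B1, 98.2% of those of HSD17B2, 95.4% of those of 20ALPHA-HSD and 95.3% of those of HSD17B11. The other 4 genes were spread more widely, with 47.7% in liver for SRD5A3, 37.9% in fat for SRD5A1, 48.6% in fat for HSD11B2 and 76% in pituitary gland for SRD5A2. In bulk tissue, fewer cells of a type and less RNA per cell cannot be told apart.

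**Figure D1:**
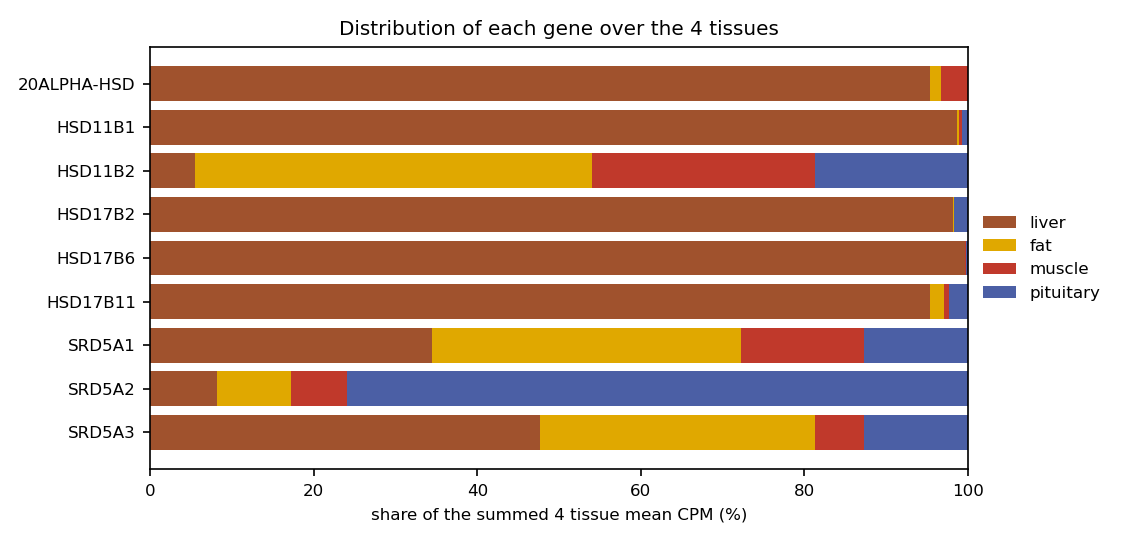
Share of each gene's summed mean CPM (x axis, percent) that falls in each of the 4 tissues, for the 9 genes with reads (y axis), each tissue mean being over 10 animals. The bars of 5 genes are nearly filled by liver, from 95.3% for HSD17B11 to 99.6% for HSD17B6, whereas SRD5A1, SRD5A3, HSD11B2 and SRD5A2 are divided among tissues.

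By pairs of tissues, edgeR's quasi-likelihood test called 6 of the 9 genes between liver and fat (64.3% of all genes), of which 5 were higher in liver. Between liver and muscle it called 8 (62.1% of all genes), 7 of them higher in liver. Between liver and pituitary gland it also called 8 (64.5% of all genes), 7 of them higher in liver. Fat and muscle differed in 4 genes (59.6% of all genes), 3 of them higher in fat. Fat and pituitary gland differed in 7 (64.6% of all genes), with 3 higher in fat and 4 in pituitary gland. Muscle and pituitary gland differed in 6 (64% of all genes), and all 6 were higher in pituitary gland. The share of members called was below that of all genes between fat and muscle and above it for the other pairs, and a difference between tissues was common among all genes. TMM factors ran from 0.518 to 0.912 in liver and muscle and from 0.963 to 1.71 in fat and pituitary gland. Scaling by library size alone shifted the median of all genes by -0.697 between liver and fat, -0.833 between liver and pituitary gland, 0.779 between fat and muscle and -0.916 between muscle and pituitary gland on the log2 scale, so differences of that size between these tissues depend on the scaling.

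HSD11B1 encodes the enzyme of the endoplasmic reticulum that regenerates cortisol from cortisone. In liver it ranged from 411 to 1182 CPM, with a median of 738 CPM, and every liver sample lay far above every sample of the other tissues. In pituitary gland it ranged from 4.03 to 8.41 CPM (median 5.57), in muscle from 0.868 to 5.13 CPM (median 2.48) and in fat from 0.824 to 3.54 CPM (median 1.45). The liver mean of 764 ± 260 CPM (SD, n = 10) was 132-fold that of pituitary gland (log2 difference 7.04, SE 0.231, edgeR adjusted p = 4.74e-24). Without the library labelled liver of bull 3, the liver mean was 724 ± 240 CPM (n = 9). Pituitary gland exceeded muscle in 10 of 10 animals (log2 difference 1.12, SE 0.250, edgeR adjusted p = 0.000137). Muscle exceeded fat in 8 of 10 animals (log2 difference 0.62, SE 0.261, edgeR adjusted p = 0.037), and the sign turned to -0.14 when libraries were scaled by size alone. The call was lost in 8 of 19 alternatives, among them those without cow 1 (0.55), cow 2 (0.61), bull 2 (0.53), bull 4 (0.43) or bull 5 (0.42) and that without the fat of bull 5 (0.55).

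HSD11B2 catalyses the opposite step, from cortisol to cortisone, and is known for shielding the mineralocorticoid receptor in the kidney. It was low everywhere, with 177 reads in all 40 samples. Fat held 94 of them and was the only tissue with a read in each of the 10 samples, at 0.0787 to 1.56 CPM (median 0.503). Muscle ranged from 0 to 1.12 CPM, pituitary gland from 0 to 0.529 CPM and liver from 0 to 0.312 CPM. In liver, 6 of 10 samples had no read. Fat exceeded liver in 9 of 10 animals (log2 difference -2.78 for liver minus fat, edgeR adjusted p = 0.000276), and muscle exceeded liver in 7 (log2 difference -2.03 for liver minus muscle, edgeR adjusted p = 0.0117). Neighbours in the order fat, muscle, pituitary gland, liver did not pass the test, with edgeR adjusted p-values of 0.248, 0.429 and 0.0537. With the animal as a block, pituitary gland exceeded liver (log2 difference 1.64, edgeR adjusted p = 0.0334), and it did so in 6 of 18 alternatives in all, among them those without cow 2 (1.63) or bull 4 (1.96). HSD11B1 and HSD11B2 thus had opposite ends of their order in liver: the mean of HSD11B1 was highest there and that of HSD11B2 lowest. NR3C2, which encodes the mineralocorticoid receptor, had its highest mean in muscle, at 54.6 CPM.

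HSD17B6 encodes an oxidative enzyme of the retinol dehydrogenase branch that acts on androgen metabolites. Liver samples ranged from 1025 to 2048 CPM, with a median of 1300 CPM and an SD of 23.9% of the mean. Pituitary gland followed at 1.74 to 9.70 CPM (median 4.12). Muscle reached at most 1.52 CPM and fat at most 1.42 CPM. The liver mean of 1378 ± 330 CPM (SD, n = 10) was 309.5-fold that of pituitary gland (log2 difference 8.27, SE 0.283, edgeR adjusted p = 1e-22). Without the library labelled liver of bull 3 it was 1380 ± 350 CPM. Pituitary gland exceeded muscle in 10 of 10 animals (log2 difference 2.35, SE 0.346, edgeR adjusted p = 9.03e-08). Muscle and fat did not pass the test (log2 difference 0.40, SE 0.378, edgeR adjusted p = 0.368), and their order turned when libraries were scaled by size alone (-0.38). The fat and muscle levels were 0.047% and 0.0588% of the liver level, close to the shares of ALB in these tissues, and the part of liver RNA in them was not tested. The pituitary gland level was 0.328% of the liver level, against 0.0144% for ALB. Over the 8 liver markers, shares were 0.02% to 42.9% in fat, 0.0321% to 2.82% in muscle and 0.0131% to 4.56% in pituitary gland. In pituitary gland, SERPINA1 (0.573%) and APOA1 (4.56%) lay above HSD17B6.

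HSD17B11 encodes a dehydrogenase found on lipid droplets that oxidises androgen metabolites. It was among the liver genes that stayed well measured in every tissue. Liver ranged from 709 to 1743 CPM (median 1136), pituitary gland from 17.7 to 32.5 CPM (median 30.3), fat from 9.98 to 37.0 CPM (median 21.4) and muscle from 2.66 to 17.1 CPM (median 6.10). The liver mean of 1180 ± 290 CPM (SD, n = 10) was 42.7-fold that of pituitary gland (log2 difference 5.42, SE 0.250, edgeR adjusted p = 6.42e-20). Without the library labelled liver of bull 3, which had the highest value, it was 1118 ± 225 CPM. Pituitary gland and fat overlapped and did not pass the test (log2 difference 0.34, SE 0.251, edgeR adjusted p = 0.241). Fat exceeded muscle in 10 of 10 animals (2.61-fold, log2 difference 1.38, SE 0.257, edgeR adjusted p = 1.6e-05).

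HSD17B2 encodes the enzyme that oxidises estradiol and testosterone to weaker hormones. It varied more between liver samples than the other 3 abundant liver genes, with an SD of 70.7% of the mean, against 23.9% to 34.0% for HSD17B6, HSD17B11 and HSD11B1. In female livers it was 2.50, 3.47, 5.51, 24.4 and 34.5 CPM in cow 1 to cow 5. In the livers labelled male it was 12.3, 8.41, 29.3, 28.6 and 19.2 CPM in bull 1 to bull 5, the 29.3 CPM being the library without Y-linked reads. Cows 1, 2 and 3 had the lowest values, and cow 5 the highest of all 10. Outside liver the gene had 45 reads in pituitary gland, 2 in fat, both in bull 5, and none in muscle. The liver mean of 16.8 ± 11.9 CPM (SD, n = 10) was 64.5-fold that of pituitary gland (log2 difference 6.01, SE 0.562, edgeR adjusted p = 8.97e-11). Without the library labelled liver of bull 3 it was 15.4 ± 11.7 CPM. Against muscle, the pooled liver reads gave an at least 401-fold higher level, with 3 reads over the 10 muscle libraries as the floor. Pituitary gland to fat gave a ratio of 20.3 (95% interval 5.3 to 173) from pooled counts, in 7 of 10 animals. Without the fat of bull 5, fat had 0 reads.

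20ALPHA-HSD encodes an aldo-keto reductase that inactivates progesterone. It had 43 reads in all, 41 of them in liver. Female livers had 0.808, 0.612, 1.28, 0.421 and 0.137 CPM in cow 1 to cow 5, and the livers labelled male 0.572, 0.358, 0.322, 0 and 0.283 CPM in bull 1 to bull 5. Only the livers of cow 1, cow 2 and cow 3 exceeded the highest value of the bulls. The liver mean was 0.479 ± 0.366 CPM (SD, n = 10), and 0.497 ± 0.384 CPM without the library labelled liver of bull 3. The single reads outside liver lay in the fat of cow 2 and the muscle of bull 4. The pooled ratio of liver to muscle was 34.7 (95% interval 5.9 to 1410), that of liver to fat 67.1 (11.4 to 2720), and liver was at least 24.8-fold higher than pituitary gland, which had no read. The gene belongs to a family of closely similar aldo-keto reductases, and reads that aligned to more than 1 place were not counted, so its level may be too low. Its relatives AKR1C3 and AKR1C4 had liver means of 778 and 249.8 CPM.

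HSD17B1, which encodes the enzyme that makes estradiol from estrone, was listed at 0 reads in all 40 libraries. By RefSeq (assembly ARS-UCD2.0) it lies between NAGLU and COASY, with MLX next. NAGLU, which encodes a lysosomal enzyme that most cells use, was listed with 11 reads over the 40 libraries, and MLX with 0. Whether reads from this stretch of the genome could be counted was not tested, and no level is given.

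**Figure D2:**
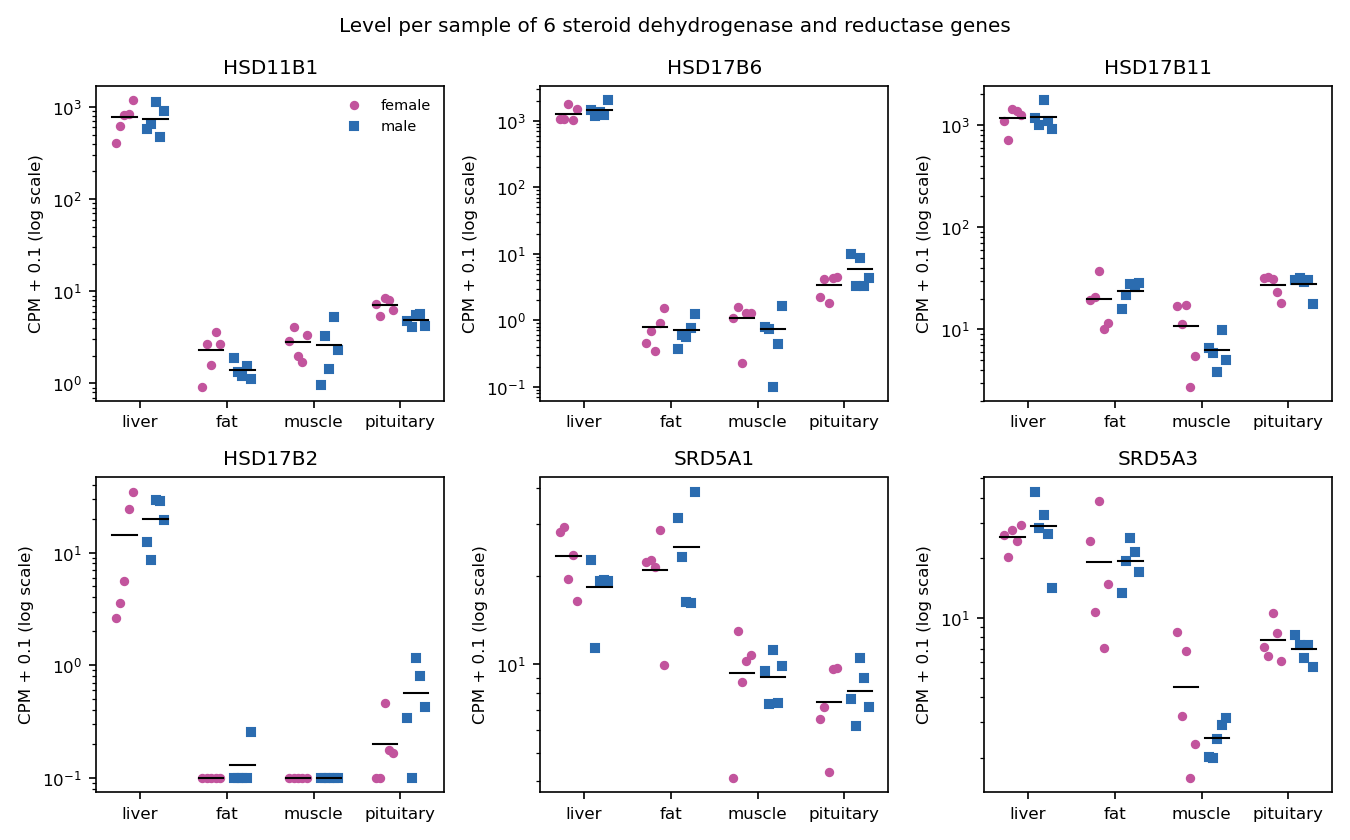
CPM plus 0.1 (y axis, log scale) in each of the 40 samples by tissue (x axis) for HSD11B1, HSD17B6, HSD17B11, HSD17B2, SRD5A1 and SRD5A3, with circles for females, squares for samples labelled male and lines for the mean of 5 samples. For the 4 dehydrogenases every liver sample lies above all samples of the other tissues, while SRD5A1 and SRD5A3 overlap between liver and fat.

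SRD5A1 and SRD5A2 encode the reductases that form dihydrotestosterone, and SRD5A3 a related reductase needed to make dolichol, the lipid that carries sugars for protein glycosylation. SRD5A1 was measured in every sample. Fat ranged from 9.84 to 38.6 CPM (median 22.4), liver from 11.3 to 29.2 CPM (median 19.4), muscle from 4 to 12.9 CPM (median 9.59) and pituitary gland from 4.2 to 10.5 CPM (median 7.29). Fat and liver overlapped and did not pass the test (23.0 ± 8.30 against 20.8 ± 5.34 CPM, SD, n = 10, log2 difference 0.14, SE 0.206, edgeR adjusted p = 0.565). Fat was the higher of the 2 in 5 of 10 animals, and the sign turned to -0.07 without the fat of bull 5, which had the highest value. Liver exceeded muscle in 10 of 10 animals (2.29-fold, log2 difference 1.19, SE 0.210, edgeR adjusted p = 4.32e-06). Muscle and pituitary gland did not pass the test (log2 difference 0.25, SE 0.211, edgeR adjusted p = 0.308). With scaling by library size alone, pituitary gland was higher than muscle (-0.67, edgeR adjusted p = 0.00465), within a shift of the median of all genes of -0.916.

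SRD5A3 had its highest mean in liver, at 27.1 ± 7.58 CPM (SD, n = 10), and ranged there from 14.0 to 42.8 CPM. Fat ranged from 6.96 to 38.4 CPM (median 18.1), pituitary gland from 5.61 to 10.5 CPM (median 7.14) and muscle from 1.48 to 8.41 CPM (median 2.60). Liver exceeded fat in 8 of 10 animals, which did not pass the test (log2 difference 0.51, SE 0.255, edgeR adjusted p = 0.0784). With the animal as a block it did (log2 difference 0.60, edgeR adjusted p = 0.0185), as it did without cow 3 (0.67), with DESeq2 and with RLE factors (0.60 each), and with scaling by library size alone the sign turned (-0.22). Fat exceeded pituitary gland in 9 of 10 animals (2.63-fold, log2 difference 1.40, SE 0.256, edgeR adjusted p = 1.03e-05). Pituitary gland exceeded muscle in 9 of 10 (2.14-fold, log2 difference 1.10, SE 0.270, edgeR adjusted p = 0.000485).

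SRD5A2 had 19 reads in all, 15 of them in the pituitary gland. Female pituitary glands had 0.189, 0, 0, 0.312 and 0.137 CPM in cow 1 to cow 5, and male ones 0, 0.151, 0.0764, 0.0881 and 0 CPM in bull 1 to bull 5. Reads thus appeared in 6 of 10 pituitary glands, 3 of each sex, and in 1, 2 and 1 samples of liver, fat and muscle. Pooled ratios of pituitary gland to the other tissues were 6.76 against fat (95% interval 1.57 to 60.9), 8.26 against liver (1.27 to 348) and 7 against muscle (1.08 to 295). The edgeR calls against these tissues (adjusted p = 0.00319, 0.00862 and 0.0168) rest on 4 reads or fewer per library, and not all of them held without cow 4, which had 4 of the 15 reads.

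**Figure D3:**
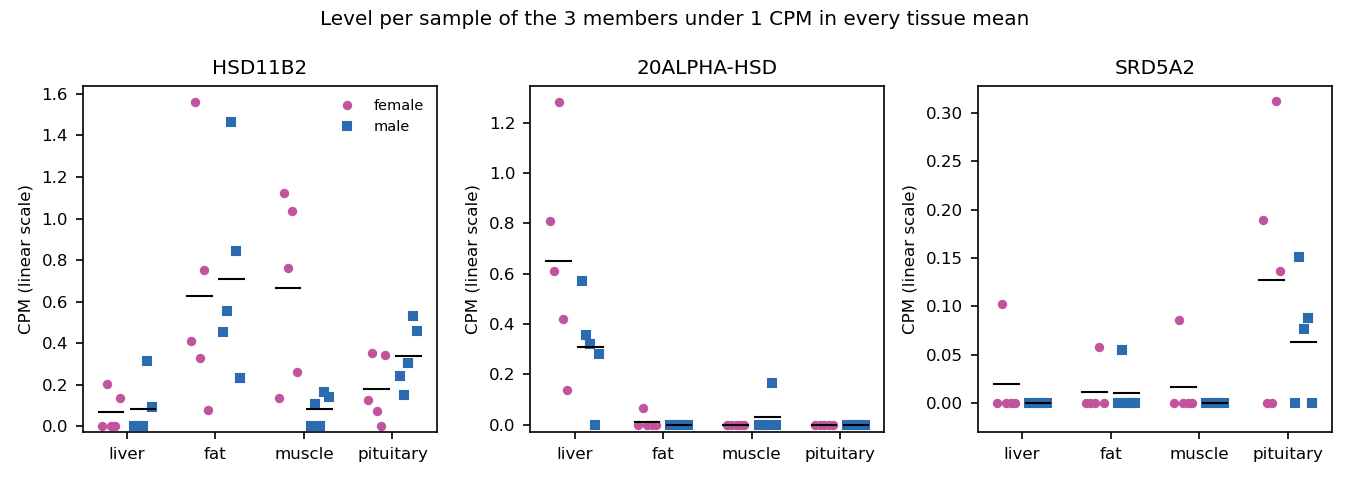
CPM (y axis, linear scale) in each of the 40 samples by tissue (x axis) for HSD11B2, 20ALPHA-HSD and SRD5A2, with circles for females, squares for samples labelled male and lines for the mean of 5 samples. HSD11B2 has reads in all 10 fat samples, 20ALPHA-HSD in 9 of 10 livers and SRD5A2 in 6 of 10 pituitary glands.

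The sexes were compared within each tissue (M1, sex as the only term) and over all 40 samples with tissue as a further term (M2), as the study did, with edgeR's likelihood ratio test. No member passed the test, neither in liver, where 0.175% of all genes did, nor in fat (0.114%), muscle (0.517%) or pituitary gland (0.745%). Of the 36 pairs of gene and tissue, 28 had more than 3 reads and reads in both sexes. Males were higher in 14 of these 28, and the median size of the difference was 0.295 on the log2 scale. Of the 36 pairs, 3 had an unadjusted p under 0.05 with the likelihood ratio test, 1 in muscle and 2 in pituitary gland, near the share of all genes (11% for muscle, 9.27% for pituitary gland, 7.45% for liver and 6.88% for fat). The quasi-likelihood test, which like DESeq2 called 0 members, also had 3 such pairs. The lowest adjusted p was 0.117 with the likelihood ratio test and 0.325 with the quasi-likelihood test. In each of the 28 pairs with more than 3 reads and reads in both sexes, the values of the sexes overlapped. The share of all genes with such an overlap was not counted.

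The 95% intervals of the sex differences use a normal quantile and take the fitted spread as known. With 5 samples per sex they may therefore be too narrow. For 10 of the 28 pairs, the whole 95% interval of the log2 difference of males minus females lay within a 2-fold difference in either direction. In liver this held for 5 of 8 genes, with intervals of -0.738 to 0.659 for HSD11B1, -0.390 to 0.762 for HSD17B6, -0.567 to 0.650 for HSD17B11, -0.836 to 0.193 for SRD5A1 and -0.372 to 0.797 for SRD5A3. Without the library labelled liver of bull 3, the intervals of the same 5 genes were -0.953 to 0.456, -0.431 to 0.816, -0.760 to 0.449, -0.925 to 0.211 and -0.492 to 0.783. The estimate of HSD17B11 then turned from 0.04 to -0.16. The liver interval of HSD17B2 was wide, at -0.765 to 1.67. In pituitary gland the interval lay within 2-fold for HSD17B11 (-0.424 to 0.477), SRD5A1 (-0.440 to 0.674) and SRD5A3 (-0.633 to 0.327), 3 of 8 genes. It reached past 2-fold for the other 5, among them HSD17B6 (-0.00614 to 1.60).

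Fat and muscle were measured less closely. In fat, 1 of 6 genes had such a narrow interval, SRD5A3 at -0.902 to 0.903, and without the fat of bull 5 SRD5A1 joined it, its interval moving from -0.530 to 1.01 to -0.727 to 0.802. In muscle, 1 of 6 genes had one, SRD5A1 at -0.707 to 0.627. Genes with few reads had wide intervals, such as -1.89 to 3 for HSD11B2 in liver. The median log2 difference of the members was 0.11 for the 8 genes of liver, 0.07 for the 8 of pituitary gland, 0.07 for the 6 of fat and -0.68 for the 6 of muscle, and that of all genes was between -0.06 and 0.00 in each tissue. The median of the members was -0.0052 in liver without the library labelled liver of bull 3, and without the fat of bull 5 it was 0.04 in fat.

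**Figure D4:**
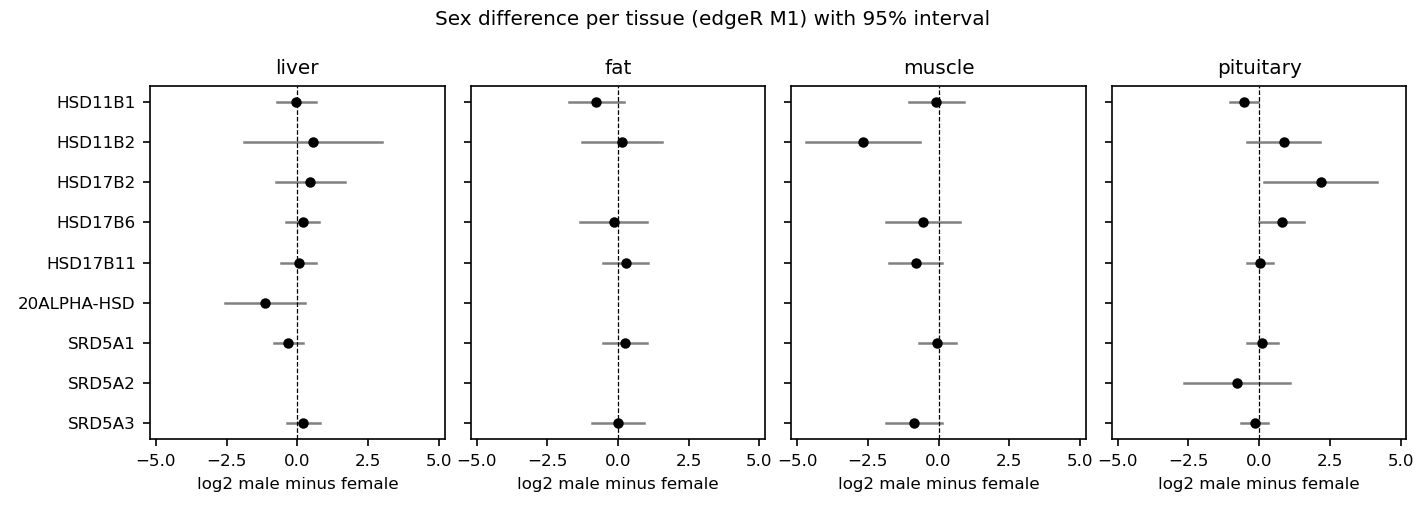
Log2 difference of males minus females (x axis) for each gene (y axis) and tissue, as points with 95% intervals of the edgeR model M1, shown for the 28 pairs with more than 3 reads and reads in both sexes. Intervals leave out 0 for HSD11B2 in muscle and for HSD11B1 and HSD17B2 in pituitary gland, and none of these passed the adjusted test.

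HSD11B2 in muscle was the largest of the 3 differences. Female muscles had 0.138, 1.12, 0.762, 1.03 and 0.263 CPM in cow 1 to cow 5. Male muscles had 0, 0.105, 0, 0.166 and 0.138 CPM in bull 1 to bull 5. Of the 5 female values, 4 lay above the highest male value, and no male library had more than 1 read. The sums were 29 reads in females, 13 of them in cow 2, and 3 in males (log2 difference -2.68, SE 1.03, adjusted p = 0.117, edgeR likelihood ratio test). With each animal left out in turn, the log2 difference lay between -2.94 and -2.36 and the adjusted p between 0.0537 and 0.398. The leukocyte markers summed to 84.1 to 248 CPM in female and 38.6 to 138 CPM in male muscle, and the fat markers to 42.1 to 799 and 90.8 to 279 CPM. Their part in the difference was not tested. The interaction of sex and tissue gave HSD11B2 an adjusted p of 0.341 (edgeR likelihood ratio test), and no member passed that test (0.335% of all genes did). It was 1 of the 9 genes with an unadjusted p under 0.05 there, where 8.58% of all genes had one.

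HSD11B1 in pituitary gland was lower in males. The female values were 7.26, 5.36, 8.41, 7.88 and 6.22 CPM and the male values 4.61, 4.03, 5.50, 5.64 and 4.11 CPM, in the order of the animal numbers. Of the 5 females, 4 lay above all 5 males, and cow 2 lay within the male range. The log2 difference was -0.55 (SE 0.252, adjusted p = 0.462, edgeR likelihood ratio test). In fat the difference had the same sign (2.21 ± 1.06 against 1.31 ± 0.32 CPM, SD, n = 5 each, log2 difference -0.77), and the interval, -1.75 to 0.215, held 0. Without the fat of bull 5 it was -0.68, with an interval of -1.73 to 0.364. Over all tissues, M2 gave -0.35 (SE 0.174, edgeR adjusted p = 0.288), which did not pass the test. It was -0.41 without the library labelled liver of bull 3, and without the fat of bull 5 it was -0.31. M2 called no member, against 1.69% of all genes, and 2 of the 9 genes had an unadjusted p under 0.05, against 16.7% of all genes.

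HSD17B2 in pituitary gland had 7 reads in females and 38 in males. The female values were 0, 0, 0.362, 0.0780 and 0.0684 CPM and the male values 0.242, 0, 1.07, 0.705 and 0.326 CPM. Bulls 1, 3, 4 and 5 lay above 4 of the 5 females, but bull 2 had no read (log2 difference 2.17, SE 1.02, adjusted p = 0.46, edgeR likelihood ratio test). In M2 the log2 difference was 1.19 (SE 0.582, edgeR adjusted p = 0.228). Beside these pituitary gland differences, the pituitary hormone markers summed to 85390 to 267900 CPM in the 5 cows and 145600 to 288000 CPM in the 5 bulls. The sums of the liver markers were 68.9 to 106 CPM in the cows and 96.2 to 272 CPM in the bulls. The part of either list was not tested.

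The highest tissue was the same in both sexes for 7 of the 9 genes, and the whole order of the 4 tissue means for 5 of them. SRD5A1 was highest in liver in females (23.4 ± 5.52 CPM, SD, n = 5) and in fat in males (25.1 ± 9.86 CPM, or 21.7 ± 7.3 CPM without the fat of bull 5), but the interaction gave an edgeR adjusted p of 0.962. HSD11B2 was highest in muscle in females and in fat in males.

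The genes whose pattern was most like that of a member were found by Pearson's r of log2(CPM + 1) over the 40 samples, among 11462 genes with a mean of at least 1 CPM in a tissue. These values describe mainly the tissue difference, since the samples share tissues, animals and libraries. HSD17B6 was most like RDH16 (r = 0.992), a retinol dehydrogenase gene of the same branch, then ADH6 (0.992) and TM6SF2 (0.989). HSD11B1 was most like ESRP2 (0.989), followed by HSD17B6 (0.987) and MGC152281 next (0.986). HSD17B2 was most like CL46 (0.967), FABP1 (0.963) and FOXA3 (0.958), and HSD17B11 most like CROT (0.976), CFI (0.976) and GULO (0.975). The reductases had lower values, with BOK (0.904), TCN2 (0.888) and GSTT1 (0.881) for SRD5A1 and SH3BGRL (0.936), NT5E (0.914) and C2 (0.914) for SRD5A3.

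After the mean of each tissue was subtracted, HSD17B11 and SRD5A3 varied together among the samples of a tissue, with r = 0.753 over the 40 samples. Within tissues r was 0.862 in muscle, 0.788 in fat, 0.556 in liver and 0.473 in pituitary gland, over 10 samples each. In muscle, cow 1 and cow 3 had the highest values of SRD5A3 (8.41 and 6.73 CPM) and with 17.0 and 17.1 CPM the highest of HSD17B11, and cow 4 the lowest of both (1.48 and 2.66 CPM). In fat, cow 3 was highest in both (38.4 and 37.0 CPM) and cow 4 lowest in both (6.96 and 9.98 CPM). The share of reads outside genes was 53.3% and 48.1% in the muscle of cow 1 and cow 3 and 36.6% in that of cow 4, and 46.9% and 37.1% in the fat of cow 3 and cow 4. Its part in this relation was not tested. The other pairs among the 6 members compared had r between -0.361 and 0.299. The genes nearest to HSD17B11 on this measure were SH3BGRL (0.861), DYNLT3 (0.855) and SYPL1 (0.851), and those nearest to SRD5A3 were POLR2M (0.792), REEP5 (0.769) and RNF170 (0.764). SRD5A1 was nearest to GSTT1 (0.815), MAP1LC3A (0.804) and SCAMP4 (0.796), and HSD17B2 to ARHGEF5 (0.800), FABP1 (0.752) and AIF1L (0.740). HSD11B1 and HSD17B6 had weaker neighbours, led by MRPS9 (0.604) and C8A (0.594).

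**Figure D5:**
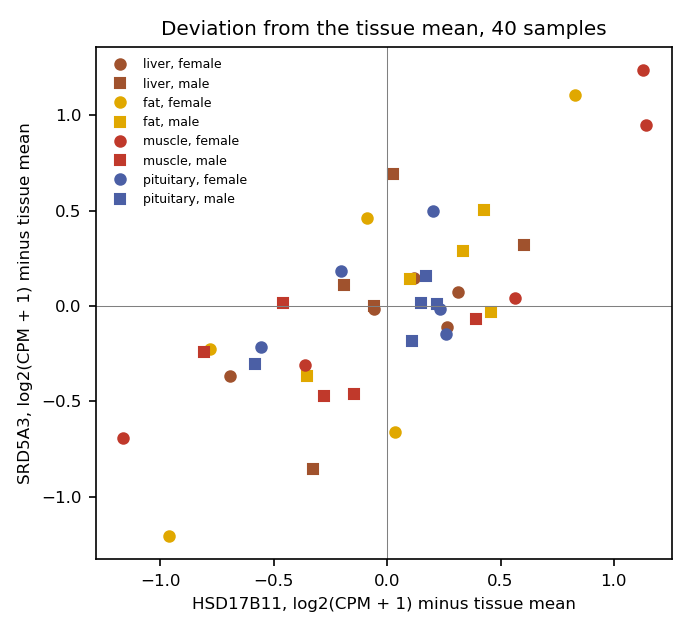
Deviation of log2(CPM + 1) from the tissue mean for HSD17B11 (x axis) and SRD5A3 (y axis) in the 40 samples, coloured by tissue, with circles for females and squares for samples labelled male. The 2 genes deviate together (r = 0.753), with the muscle of cow 1 and cow 3 and the fat of cow 3 at the upper right and the muscle and fat of cow 4 at the lower left.

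Other genes of steroid metabolism were followed in 9 lists with 82 genes, of which 72 had reads. The edgeR quasi-likelihood test placed 34 of them higher in liver than in each other tissue (13.6% of all genes), 8 in fat (11.4%), 7 in pituitary gland (15.5%) and 6 in muscle (13%). Among 16 other short-chain steroid dehydrogenases, 9 were highest in liver, 3 in fat and 2 in pituitary gland, and none in muscle. HSD17B13, another lipid droplet enzyme, lies beside HSD17B11 in RefSeq and had a mean of 1165 CPM in liver and under 1 CPM in the other 3 tissues, whereas HSD17B11 kept a mean of 8.40 to 27.6 CPM there. RDH16 had 809 CPM in liver and at most 1.38 CPM elsewhere. HSD17B12, which elongates fatty acids, was highest in fat (350 against 128 CPM in liver), and HSD11B1L in pituitary gland (18.2 CPM). Of 7 aldo-keto reductases with reads, 5 were highest in liver, among them AKR1D1 (597.5 CPM), the reductase of bile acid synthesis.

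Steroid synthesis genes were divided, with 5 of 13 highest in liver and 3 in fat, and 1 each for muscle and pituitary gland. CYP17A1, needed for androgen synthesis, had at most 0.815 CPM in a tissue mean. Of 10 conjugation genes with reads, 7 were highest in liver and 2 in pituitary gland, with SULT2A1, a steroid sulfotransferase, at 630 CPM in liver. Of the 3 genes with reads that supply NADPH, 2 were highest in fat, among them PGD (576 CPM). Of the 6 steroid receptors, 2 were highest in muscle, 2 in pituitary gland and 1 in liver. Of 9 glucocorticoid-responsive genes, 4 were highest in liver and 2 in muscle, where FKBP5 had a mean of 1197 CPM. Of the 7 dolichol genes and reductase relatives, 2 were highest in liver and 1, TECRL, in muscle. SHBG, the only one of 2 steroid carriers with reads, was highest in liver at 54.8 CPM.

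Between the sexes, 2 of these 72 genes passed the test of M1, 1 in muscle (0.517% of all genes) and 1 in pituitary gland (0.745%), and 3 that of M2 (1.69%). CYP19A1, the aromatase gene that turns androgens into estrogens, was higher in male than in female muscle (2.46 ± 1.57 against 0.347 ± 0.352 CPM, SD, n = 5 each, log2 difference 2.84, SE 0.722, edgeR adjusted p = 0.0233). All 5 male values (1.05 to 4.86 CPM) lay above all 5 female values (0 to 0.920 CPM), and the quasi-likelihood test gave an adjusted p of 0.296. These values rest on few reads, 76 in male and 13 in female muscle, with 5 in bull 3 and 7 in cow 5. SULT2B1, a sulfotransferase gene for steroids and cholesterol, was higher in male than in female pituitary gland (6.74 ± 1.70 against 2.2 ± 1.22 CPM, log2 difference 1.61, SE 0.365, edgeR adjusted p = 0.00554, quasi-likelihood 0.146). The male values of SULT2B1 (4.57 to 8.52 CPM) lay above the female values (1.2 to 4.17 CPM). CYP19A1 and SULT2B1 are named because M1 called them on these same values, so the separation of the sexes is no further support. The share of all genes separated in this way was not counted. M2 called both, and HSD17B3, a testosterone-making dehydrogenase, lower in males (log2 difference -1.45, SE 0.465, edgeR adjusted p = 0.0432). With the animal as a block, the adjusted p of the 3 genes was 0.431, 0.516 and 0.396 (limma voom).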

How the data were processed

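Total RNA was isolated from 4 tissues of 10 cattle. The mRNA selected from it by poly-A was sequenced in 40 samples. By the study's methods and the submitters' processing notes, the read pairs were cleaned of adapters by Trimmomatic and aligned to the bosTau7 genome by TopHat2 with Bowtie2, and HTSeq counted uniquely mapped reads on UCSC genes, after SAMtools had converted the alignments. The authors deposited raw read counts per gene symbol, without normalization, and these counts are the unit of every file. The counting mode and strandedness are not given in the sources used here, so reads of overlapping and antisense genes cannot be told apart. A row without a gene name (0.114% to 2.69% of the reads counted) was left out, as were 422 genes without reads.

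From the counts, sex was tested with edgeR 4.0.16 in R 4.3.3 (TMM factors, estimateDisp, likelihood ratio test) and tissues with its quasi-likelihood test, with sex as a further term and Benjamini-Hochberg adjustment over 13148 genes. Log2 fold changes used a prior count of 0.125. SEs come from the fitted models. The scripts were tested on simulated data. Ratios of low counts are pooled over the 10 libraries of a tissue, with exact 95% intervals and a floor of 3 reads over the group. The 4 samples of an animal share its number in the sample titles, which pairs tissues by the labels. Of 60 pairs of tissues of 1 animal, 38 had deviations correlated above 0.1 (median r = 0.208). The numbers of cows and bulls do not pair them. p-values of M1, over 5 animals per sex by the labels, measure the spread between these animals. M2, the interaction and the main tissue tests took the 40 samples as independent, although by the labels each animal gave 4 of them. Their p-values therefore do not measure the spread between animals alone.

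Every member was described. Sex differences got full statistics at an unadjusted p under 0.05, tissue differences between neighbours in the order of the means, and likeness covered the 3 nearest genes. List genes were named where M1 or M2 called them or as examples with a high mean, and HSD11B1L, NR3C2, CYP17A1, AKR1C3, AKR1C4, AKR1D1, NAGLU and MLX were chosen after their values were seen. The members and lists were chosen with earlier results of these data known. Alternatives used limma 3.58.1 and DESeq2 1.42.0, other scalings, a low-count filter, left-out animals and the animal as a block. Some list genes are not reported here. Figures used matplotlib 3.10.9 in Python 3.11.15.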

Additional observations from a re-analysis of the deposited data

Results flagged for a closer look

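Of 38 groups of 5 samples in which a member had a mean of at least 1 CPM, 1 held a sample far from the others. HSD17B11 in the pituitary gland of bull 5 was at 17.7 CPM, while the other 4 males had 29.2 to 31.6 CPM. The gap to the nearest sample was 0.825 of the whole range, above the limit of 0.71. For normally distributed values this limit flags about 1 in 20 groups, and whether CPM are so distributed was not tested. A single flag among 38 is not read as a pattern. In females, cow 5 had a value nearly as low (18 CPM). The pituitary gland of bull 5 had 46.9% of its reads outside genes, against 33.2% to 41.2% in the other males, and liver markers of 272 CPM, against 96.2 to 136 CPM, and the part of these values was not tested.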

How the results depend on the processing

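No member was called for sex by M1, M2 or the interaction under any alternative. Of 14 calls between neighbouring tissues, 11 had enough reads for a fold, and 10 of these kept sign and call under all 19 alternatives. The other, HSD11B1 in muscle against fat, turned to -0.14 with scaling by library size alone, and lost its call with RLE factors, with only the 20 samples of the 2 tissues, without the fat of bull 5 and without cow 1, cow 2, bull 2, bull 4 or bull 5. The 3 calls with few reads held in every alternative that gave a value, which were 18 for 20ALPHA-HSD, 19 for HSD17B2 and 17 for SRD5A2: filterByExpr removed 20ALPHA-HSD and SRD5A2, and DESeq2 gave SRD5A2 no adjusted p. The count of members highest in liver was 6 with SRD5A3 added (DESeq2, RLE factors, the animal as a block, without cow 3) and 4 with filterByExpr. Scaling by library size alone also turned HSD11B2 (-0.36) and SRD5A1 (-0.67) in muscle against pituitary gland. It turned HSD17B6 in muscle against fat (-0.38) and SRD5A3 in liver against fat (-0.22) too, and placed 2 members, not 0, highest in fat. Without the fat of bull 5, SRD5A1 in fat against liver turned to -0.069. The count of members highest in pituitary gland, 1 for SRD5A2, was 0 with DESeq2 and filterByExpr, and 0 to 1 with an animal left out (0 without cow 4).

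Counts of all genes called moved more. M1 called 23 genes in liver (quasi-likelihood 1, filterByExpr 13), 15 in fat (3, 6, and 30 with DESeq2), 68 in muscle (quasi-likelihood 7) and 98 in pituitary gland (quasi-likelihood 12, library sizes alone 56). With 1 animal left out these were 10 to 187, 5 to 22, 25 to 553 and 54 to 231. M2 called 222 genes, 77 with the quasi-likelihood test, 8 with voom and the animal as a replicate block, and 57 to 714 with 1 animal left out. The interaction called 44 genes, 74 without the fat of bull 5, 9 to 197 with 1 animal left out, and 0 with the quasi-likelihood test (922 at an unadjusted p under 0.05). The block changed the call of HSD11B2 in pituitary gland against liver and of SRD5A3 in liver against fat and of no other contrast between neighbours. The depth limits HSD11B2, 20ALPHA-HSD and SRD5A2, which lay at or under 3 reads in many libraries. The cause of these changes was not tested.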
